A study of Mus musculus with 4 samples.

Results

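The 51 genes described here encode the proteins that recognise splice sites and build the spliceosome: SR proteins, hnRNPs, the SF3A and SF3B subunits and the Snrp-named proteins of the small nuclear ribonucleoprotein particles (snRNPs). They are the rows of the mRNA table whose symbol starts with Srsf, Sfrs, Sf3a, Sf3b, Hnrnp, Hnrp or Snrp, without Snrpn, and they make up 51 of its 13815 rows. Each was measured in 3 libraries of polyadenylated RNA from mouse embryonic stem cells: dgcr8-/- cells, dicer-/- cells and WT cells, all labelled with the strain V6.5 and grown with ESGRO and serum. DGCR8 works with Drosha to release miRNA hairpins from their primary transcripts, and Dicer cuts those hairpins into mature miRNAs. The labels do not describe the knockout alleles or say whether a line is a clone, so line, culture and genotype cannot be told apart.

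SR proteins carry RNA-recognition motifs and a tail rich in arginine and serine, and they mostly promote the use of nearby splice sites when bound to exons. HnRNPs are abundant nuclear RNA-binding proteins that often oppose them and also act in RNA export, stability and translation. SF3A and SF3B are parts of the U2 snRNP, which grips the branch point of an intron. The Sm proteins form a ring around the U1, U2, U4 and U5 small nuclear RNAs, and the remaining Snrp proteins here belong to U1 or U2 alone. Many SR protein and hnRNP genes are known to limit their own level through exons whose inclusion leads to nonsense-mediated decay of the transcript; counts per gene do not separate such forms.

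There was 1 library per group, so no test between conditions was possible and no p-value is given. Values are counts scaled to the table's total of each library (CPM), and each 95% interval is an exact interval for a ratio of CPM that covers counting error only. A gene was counted as higher or lower at 1.5-fold or 2-fold on the log2(CPM + 1) scale. The table holds 11123498 counts for dgcr8-/- cells, 12309100 for dicer-/- cells and 9931625 for WT. Dgcr8 had 20.9 CPM in dgcr8-/- cells, 84.7 CPM in dicer-/- cells and 52.7 CPM in WT, and Dicer1 had 128 CPM in dgcr8-/- cells, 20.1 CPM in dicer-/- cells and 79.9 CPM in WT; each was lowest in the library labelled as its own knockout. The 10 embryonic stem cell markers looked for were all listed and summed to 5383 CPM in dgcr8-/- cells, 4396 CPM in dicer-/- cells and 6447 CPM in WT. Of these, 1 in dgcr8-/- cells and 1 in dicer-/- cells was at least 2-fold higher than in WT (Fgf4), and 2 in dgcr8-/- cells and 3 in dicer-/- cells were at least 2-fold lower (Klf4 and Tdgf1 in each, and Zfp42 in dicer-/- cells). Tdgf1 had the largest difference in level, with 471 CPM in dgcr8-/- cells, 421 CPM in dicer-/- cells and 1486 CPM in WT. Of 10 feeder fibroblast markers 5 are listed. Together they had 108 CPM in dgcr8-/- cells, 85.2 CPM in dicer-/- cells and 88.0 CPM in WT, most of it Fbln1. At least 2-fold lower than in WT were 4 of the 5 in dgcr8-/- cells and 3 in dicer-/- cells, against 8.02% and 9.7% of all genes. In either knockout 0 of the 5 were 2-fold higher, against 14.3% and 16.0%. Col1a1, a defining fibroblast gene, had 6, 5 and 97 counts and Thy1 23, 16 and 175 in that order, so these 2 were highest in WT, and S100a4 was at 0 in dgcr8-/- cells. The part of these marker levels in the results below was not tested.

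Most of the splicing regulators lay within 1.5-fold of their WT level; Sf3b3, Sf3a2 and Hnrnpul1 stood apart on the higher side, and most Snrp genes were below WT. All 51 reached 1 CPM in at least 1 library of each pair. In dgcr8-/- cells, 4 of 51 were at least 1.5-fold higher than in WT, against 27.1% of all genes tested, and 7 were at least 1.5-fold lower, against 17.7%. In dicer-/- cells, 6 were higher, against 28.0%, and 4 lower, against 19.7%. At 2-fold, 3 members were higher and 0 lower in dgcr8-/- cells, against 14.3% and 8.02% of all genes, and 2 higher and 0 lower in dicer-/- cells, against 16.0% and 9.7%. Each of these shares of members is below that of all genes. The genes tested reach down to 1 CPM and were not matched to the members for level. With median-ratio size factors in place of CPM, 1 member was 2-fold higher and 1 2-fold lower in dgcr8-/- cells, against 11.8% and 10.2% of all genes. There 3 were 1.5-fold higher and 10 1.5-fold lower, against 22.7% and 21.9%. In dicer-/- cells the 1.5-fold counts were 2 higher and 6 lower, against 24.6% and 23.0%. The 2-fold counts there were 1 and 0, against 14.2% and 11.5%. In bulk RNA, fewer cells with a transcript and less of it per cell cannot be told apart.

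The members' median log2 ratio was -0.01 in dgcr8-/- cells, where that of all genes was 0.11, and 0.05 in dicer-/- cells, where it was 0.10. A ratio above 1 was found for 25 members in dgcr8-/- cells, against 56.2% of all genes, and for 29 in dicer-/- cells, against 54.9%. With median-ratio size factors these were 23 members against 49.2% of all genes and 21 members against 49.6%, so in dicer-/- cells the members' share lay above that of all genes with CPM and below it with size factors. Both ratios use the same WT library. Scaling by median-ratio size factors, which moved the median of all genes by -0.13 in dgcr8-/- cells and -0.11 in dicer-/- cells, gave member medians of -0.15 and -0.06. Together the members held 1.84% of all counts in dgcr8-/- cells, 1.82% in dicer-/- cells and 1.73% in WT.

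**Figure D1:**
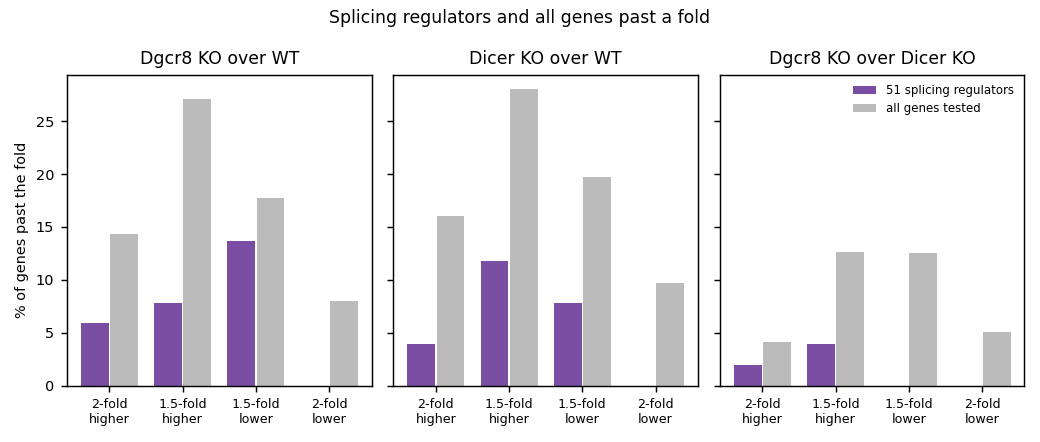
Percentage of genes at least 1.5-fold or 2-fold higher or lower on the log2(CPM + 1) scale, for the 51 splicing regulators (purple) and all genes tested (grey), in each of the 3 pairs of libraries (Dgcr8 KO, dgcr8-/- cells; Dicer KO, dicer-/- cells). Under each rule and in each pair the splicing regulators have the shorter bar, and no member is 2-fold lower. The genes tested were not matched to the members for level.

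**Figure D2:**
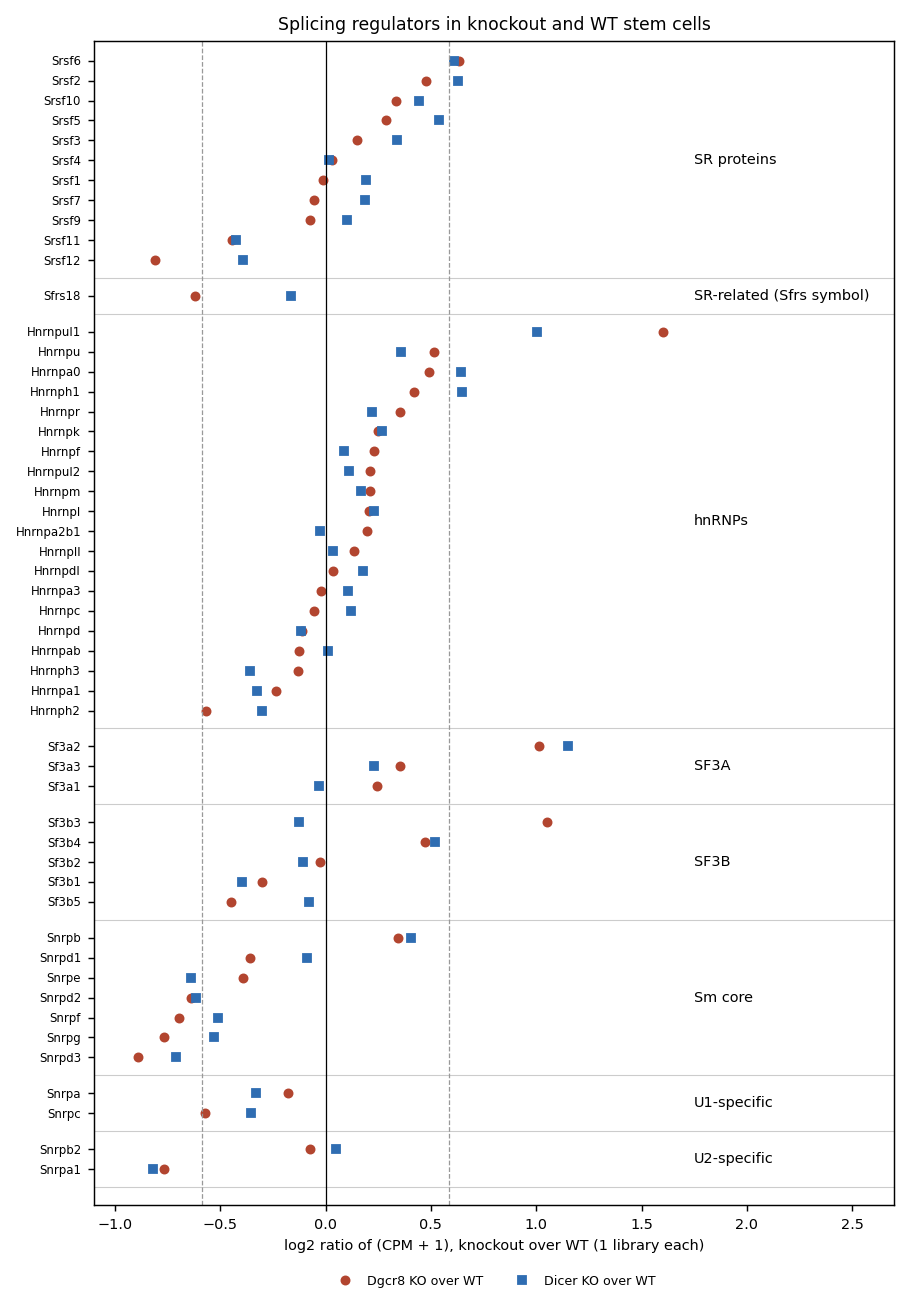
Log2 ratio of (CPM + 1) of each of the 51 genes, grouped by role, for dgcr8-/- cells over WT (circles) and dicer-/- cells over WT (squares), with 1 library each; dashed lines mark 1.5-fold. The Snrp genes other than Snrpb and Snrpb2 lie left of 0, and Sf3b3 has its 2 points far apart.

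Of the 11 SR protein genes, Srsf6 and Srsf2 stood highest against WT and Srsf11 and Srsf12 lowest. Srsf6, which encodes one of the larger SR proteins, had 428 CPM in dgcr8-/- cells, 420.3 CPM in dicer-/- cells and 275 CPM in WT (4756, 5173 and 2731 counts). It was 1.55-fold higher (1.48 to 1.63) in dgcr8-/- cells and 1.53-fold higher (1.46 to 1.60) in dicer-/- cells than in WT. Srsf2, the gene of SC35, which binds exonic enhancers and also acts in transcription elongation, had 498 CPM in dgcr8-/- cells, 553 CPM in dicer-/- cells and 357 CPM in WT (5539, 6807 and 3549 counts). It was 1.39-fold higher (1.34 to 1.45) in dgcr8-/- cells and 1.55-fold higher (1.49 to 1.61) in dicer-/- cells than in WT. WT was the lowest of the 3 libraries for both genes, and the knockout lines differed less from each other than from WT.

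Srsf5, first described in regenerating rat liver, had 229 CPM in dgcr8-/- cells, 272 CPM in dicer-/- cells and 187 CPM in WT (2542, 3350 and 1858 counts) and was 1.22-fold higher (1.15 to 1.30) in dgcr8-/- cells and 1.45-fold higher (1.37 to 1.54) in dicer-/- cells than in WT. Srsf7, an SR protein with a zinc knuckle that links splicing to mRNA export, had 263 CPM in dgcr8-/- cells, 311 CPM in dicer-/- cells and 273 CPM in WT (2929, 3832 and 2716 counts). It was 1.04-fold lower (0.985 to 1.09) in dgcr8-/- cells and 1.14-fold higher (1.08 to 1.20) in dicer-/- cells than in WT. Both genes were highest in dicer-/- cells, but Srsf5 was lowest in WT and Srsf7 in dgcr8-/- cells.

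Srsf11, whose protein binds the U2AF subunit at the 3′ splice site, had 178 CPM in dgcr8-/- cells, 180.1 CPM in dicer-/- cells and 242 CPM in WT (1978, 2217 and 2408 counts) and was 1.36-fold lower (1.28 to 1.45) in dgcr8-/- cells and 1.35-fold lower (1.27 to 1.43) in dicer-/- cells than in WT. Srsf12, whose human protein opposes other SR proteins, was near the floor of 1 CPM, with 8 counts in dgcr8-/- cells, 16 in dicer-/- cells and 20 in WT, so its intervals are wide: it was 2.80-fold lower (1.18 to 7.35) in dgcr8-/- cells and 1.55-fold lower (0.763 to 3.20) in dicer-/- cells than in WT. Both genes had their highest level in WT. Outside the 11, Sfrs18, now named Pnisr, encodes an SR-related protein. It had 52.1 CPM in dgcr8-/- cells, 71.7 CPM in dicer-/- cells and 80.6 CPM in WT (580, 883 and 800 counts) and was 1.54-fold lower (1.39 to 1.72) in dgcr8-/- cells and 1.12-fold lower (1.02 to 1.24) in dicer-/- cells than in WT. The other 5 SR genes (Srsf1, Srsf3, Srsf4, Srsf9 and Srsf10) had log2 ratios of -0.07 to 0.34 in dgcr8-/- cells and 0.02 to 0.44 in dicer-/- cells. The median of the 11 SR genes was 0.03 in dgcr8-/- cells and 0.19 in dicer-/- cells; with median-ratio size factors it was -0.11 and 0.08, so its sign in dgcr8-/- cells depends on the scaling.

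Of the 20 hnRNP genes, 1 was at least 1.5-fold higher in dgcr8-/- cells and 3 in dicer-/- cells, and 0 were 1.5-fold lower in either; of all genes 27.1% and 28.0% were higher and 17.7% and 19.7% lower. With median-ratio size factors 1 and 1 were higher and 1 and 0 lower, in dgcr8-/- and dicer-/- cells in that order. Of all genes 22.7% and 24.6% were then higher and 21.9% and 23.0% lower. Hnrnpul1, an hnRNP U-like protein first found as a partner of an adenovirus protein, had the largest ratio of all members in dgcr8-/- cells. It had 40.9 CPM in dgcr8-/- cells, 26.6 CPM in dicer-/- cells and 12.8 CPM in WT (455, 328 and 127 counts). It was 3.20-fold higher (2.62 to 3.93) in dgcr8-/- cells and 2.08-fold higher (1.69 to 2.58) in dicer-/- cells than in WT. Its WT level rests on few counts, and its ratio in dicer-/- cells lies at the 2-fold limit, with a log2 ratio of 1.0. Its relative Hnrnpu encodes scaffold attachment factor A, an RNA- and chromatin-binding protein of the nuclear matrix. Hnrnpu had 1174 CPM in dgcr8-/- cells, 1053 CPM in dicer-/- cells and 822 CPM in WT (13056, 12958 and 8164 counts) and was 1.43-fold higher (1.39 to 1.47) in dgcr8-/- cells and 1.28-fold higher (1.25 to 1.32) in dicer-/- cells than in WT. The span of Hnrnpu overlaps that of Cox20, which had 4.67 CPM in dgcr8-/- cells, 4.79 CPM in dicer-/- cells and 9.36 CPM in WT; its part in the counts was not tested.

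The 3 genes named for hnRNP H, whose proteins bind runs of G, differed in direction. Hnrnph1 had 405 CPM in dgcr8-/- cells, 474 CPM in dicer-/- cells and 302 CPM in WT (4506, 5830 and 3001 counts) and was 1.34-fold higher (1.28 to 1.40) in dgcr8-/- cells and 1.57-fold higher (1.5 to 1.64) in dicer-/- cells than in WT. The X-linked Hnrnph2 had 65.0 CPM in dgcr8-/- cells, 78.3 CPM in dicer-/- cells and 96.8 CPM in WT (723, 964 and 961 counts) and was 1.49-fold lower (1.35 to 1.64) in dgcr8-/- cells and 1.24-fold lower (1.13 to 1.35) in dicer-/- cells than in WT. Hnrnph3 had 59.5 CPM in dgcr8-/- cells, 50.6 CPM in dicer-/- cells and 65.2 CPM in WT (662, 623 and 648 counts) and was 1.10-fold lower (0.982 to 1.22) in dgcr8-/- cells and 1.29-fold lower (1.15 to 1.44) in dicer-/- cells than in WT. Hnrnph1 was thus lowest in WT and the other 2 genes highest there. The ratio of Hnrnph1 to Hnrnph2 counts inside a library, which needs no scaling between libraries and was chosen after the values were seen, was 6.23 in dgcr8-/- cells, 6.05 in dicer-/- cells and 3.12 in WT. It was 2.0-fold (1.79 to 2.22) that of WT in dgcr8-/- cells and 1.94-fold (1.75 to 2.14) in dicer-/- cells.

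Hnrnpa0, a single-exon hnRNP gene whose protein binds AU-rich elements, had 273 CPM in dgcr8-/- cells, 303 CPM in dicer-/- cells and 194 CPM in WT (3040, 3733 and 1925 counts) and was 1.41-fold higher (1.33 to 1.49) in dgcr8-/- cells and 1.56-fold higher (1.48 to 1.65) in dicer-/- cells than in WT. Hnrnpa3 and Hnrnpa1, which with Hnrnpu hold the most counts of the members, differed less from WT than Hnrnpa0. Hnrnpa3 had 1830.2 CPM in dgcr8-/- cells, 2001 CPM in dicer-/- cells and 1858 CPM in WT (20358, 24631 and 18452 counts) and was 1.02-fold lower (0.995 to 1.04) in dgcr8-/- cells and 1.08-fold higher (1.06 to 1.10) in dicer-/- cells than in WT. Hnrnpa1, a repressor of exon inclusion that also binds the miR-18a hairpin in human cells, had 1039.6 CPM in dgcr8-/- cells, 976 CPM in dicer-/- cells and 1225 CPM in WT (11564, 12016 and 12164 counts) and was 1.18-fold lower (1.15 to 1.21) in dgcr8-/- cells and 1.25-fold lower (1.22 to 1.29) in dicer-/- cells than in WT. Hnrnpa2b1, reported in human cells to bind methylated primary miRNAs and DGCR8, had 1083 CPM in dgcr8-/- cells, 926 CPM in dicer-/- cells and 943 CPM in WT (12045, 11398 and 9366 counts) and was 1.15-fold higher (1.12 to 1.18) in dgcr8-/- cells and 1.02-fold lower (0.991 to 1.05) in dicer-/- cells than in WT. The mouse genome holds processed copies of several hnRNP A and Sm genes, and the sources do not state how reads shared with such copies were counted. The other 11 hnRNP genes had log2 ratios of -0.13 to 0.36 in dgcr8-/- cells, with Hnrnpr highest, and -0.12 to 0.27 in dicer-/- cells, with Hnrnpk highest. The hnRNP median was 0.20 in dgcr8-/- cells and 0.12 in dicer-/- cells, and 0.06 and 0.00 with median-ratio size factors.

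**Figure D3:**
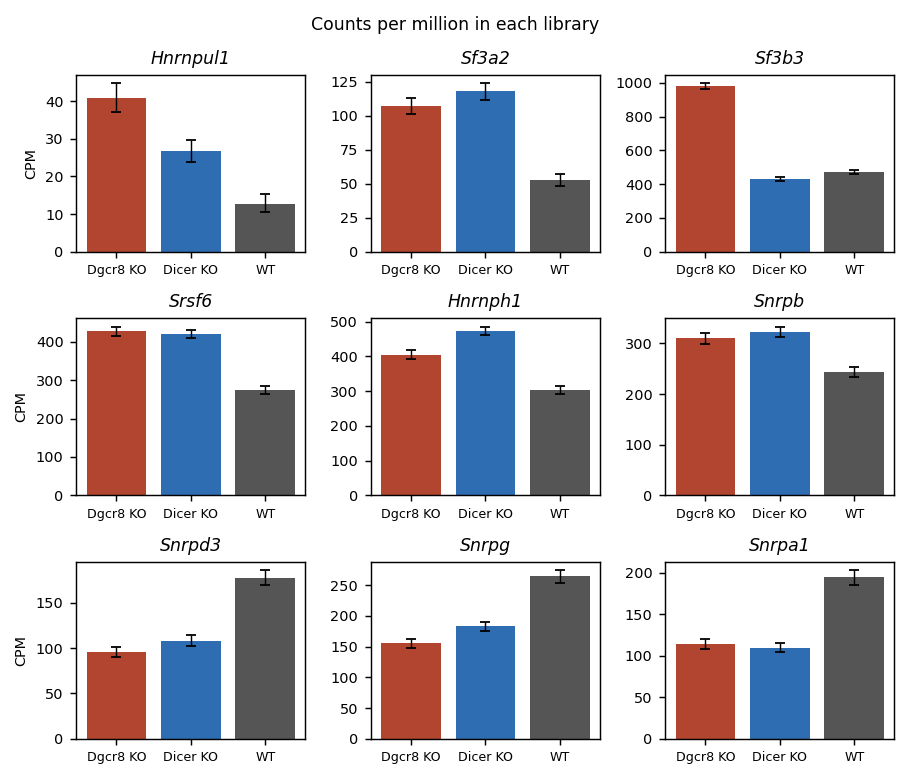
CPM of 9 members in dgcr8-/- cells, dicer-/- cells and WT (1 library each); error bars are exact 95% Poisson intervals for the count. Sf3b3 is high in dgcr8-/- cells alone, Hnrnpul1, Sf3a2, Srsf6, Hnrnph1 and Snrpb are lowest in WT, and Snrpd3, Snrpg and Snrpa1 are highest in WT.

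The SF3 genes held the largest split between the knockouts. Sf3b3 encodes SF3B130, a beta-propeller protein at the core of SF3B, and is related in sequence to the DNA repair protein DDB1. It had 980.0 CPM in dgcr8-/- cells, 432 CPM in dicer-/- cells and 472 CPM in WT (10901, 5321 and 4688 counts). The Dgcr8 knockout alone was high: Sf3b3 was 2.08-fold higher (2.01 to 2.15) there and 1.09-fold lower (1.05 to 1.14) in dicer-/- cells than in WT, and 2.27-fold higher (2.19 to 2.34) in dgcr8-/- than in dicer-/- cells. The other SF3B genes did not show this split. With median-ratio size factors the log2 ratio of Sf3b3 in dgcr8-/- cells over WT was 0.91, below 2-fold. Sf3b1, the gene of the largest SF3B subunit, had 395 CPM in dgcr8-/- cells, 369.8 CPM in dicer-/- cells and 487 CPM in WT (4389, 4552 and 4838 counts) and was 1.23-fold lower (1.18 to 1.29) in dgcr8-/- cells and 1.32-fold lower (1.26 to 1.37) in dicer-/- cells than in WT. The ratio of Sf3b3 to Sf3b1 counts inside a library was 2.48 in dgcr8-/- cells, 1.17 in dicer-/- cells and 0.969 in WT. In the GRCm38.p6 annotation the start of Sf3b3 overlaps the span of Cog4, a Golgi transport gene. Cog4 had 88.0 CPM in dgcr8-/- cells, 59.7 CPM in dicer-/- cells and 123 CPM in WT (979, 735 and 1218 counts), highest in WT, and its part in the Sf3b3 counts was not tested.

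Sf3b4, whose protein binds the intron upstream of the branch point, had 174 CPM in dgcr8-/- cells, 179.9 CPM in dicer-/- cells and 125 CPM in WT (1934, 2215 and 1242 counts) and was 1.39-fold higher (1.29 to 1.49) in dgcr8-/- cells and 1.44-fold higher (1.34 to 1.54) in dicer-/- cells than in WT. Sf3b5, a small subunit, had 72.7 CPM in dgcr8-/- cells, 94.3 CPM in dicer-/- cells and 99.7 CPM in WT (809, 1161 and 990 counts) and was 1.37-fold lower (1.25 to 1.51) in dgcr8-/- cells and 1.06-fold lower (0.97 to 1.15) in dicer-/- cells than in WT. Sf3b2 had log2 ratios of -0.03 in dgcr8-/- cells and -0.11 in dicer-/- cells. The 5 SF3B genes therefore spread over log2 ratios of -0.45 to 1.05 in dgcr8-/- cells and -0.40 to 0.52 in dicer-/- cells.

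In SF3A, Sf3a2 stood apart from its partners. Sf3a2, a zinc finger subunit, had 107 CPM in dgcr8-/- cells, 118 CPM in dicer-/- cells and 52.6 CPM in WT (1191, 1453 and 522 counts) and was 2.04-fold higher (1.84 to 2.26) in dgcr8-/- cells and 2.25-fold higher (2.03 to 2.49) in dicer-/- cells than in WT. WT was the lowest library. With median-ratio size factors the log2 ratio of Sf3a2 in dgcr8-/- cells over WT was 0.88, below 2-fold. Sf3a1, which holds the SURP domains of the complex, had 232 CPM in dgcr8-/- cells, 191 CPM in dicer-/- cells and 196 CPM in WT (2581, 2357 and 1942 counts) and was 1.19-fold higher (1.12 to 1.26) in dgcr8-/- cells and 1.02-fold lower (0.961 to 1.08) in dicer-/- cells than in WT, and Sf3a3 had log2 ratios of 0.35 in dgcr8-/- cells and 0.23 in dicer-/- cells. The ratio of Sf3a2 to Sf3a1 counts inside a library was 0.461 in dgcr8-/- cells, 0.616 in dicer-/- cells and 0.269 in WT.

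The Sm core genes were lower in the knockouts than in WT, with 1 exception. Of the 7, 6 in dgcr8-/- cells and 6 in dicer-/- cells had a ratio below 1, where 43.8% and 45.1% of all genes did, and 4 in dgcr8-/- cells and 3 in dicer-/- cells were at least 1.5-fold lower, where 17.7% and 19.7% of all genes were. With median-ratio size factors the counts at 1.5-fold lower were 4 and 5, against 21.9% and 23.0% of all genes. The median log2 ratio of the 7 was -0.64 in dgcr8-/- cells and -0.53 in dicer-/- cells. With median-ratio size factors it was -0.78 and -0.64, where the median of all genes moved by -0.13 and -0.11. Snrpd3, the gene of SmD3, had 95.4 CPM in dgcr8-/- cells, 108 CPM in dicer-/- cells and 178 CPM in WT (1061, 1330 and 1763 counts). It was 1.86-fold lower (1.72 to 2.01) in dgcr8-/- cells and 1.64-fold lower (1.53 to 1.77) in dicer-/- cells than in WT, the lowest of the 7 in each. Snrpg had 155 CPM in dgcr8-/- cells, 183 CPM in dicer-/- cells and 265 CPM in WT (1727, 2252 and 2627 counts) and was 1.70-fold lower (1.60 to 1.81) in dgcr8-/- cells and 1.45-fold lower (1.37 to 1.53) in dicer-/- cells than in WT. Snrpf had 102 CPM in dgcr8-/- cells, 116 CPM in dicer-/- cells and 165 CPM in WT (1130, 1423 and 1641 counts) and was 1.63-fold lower (1.51 to 1.76) in dgcr8-/- cells and 1.43-fold lower (1.33 to 1.54) in dicer-/- cells than in WT. These 3 genes were highest in WT and had their lowest level in dgcr8-/- cells.

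Snrpd2 had 176 CPM in dgcr8-/- cells, 178 CPM in dicer-/- cells and 274 CPM in WT (1954, 2197 and 2722 counts) and was 1.56-fold lower (1.47 to 1.65) in dgcr8-/- cells and 1.54-fold lower (1.45 to 1.63) in dicer-/- cells than in WT. Snrpe had 272 CPM in dgcr8-/- cells, 229 CPM in dicer-/- cells and 357 CPM in WT (3026, 2821 and 3549 counts) and was 1.31-fold lower (1.25 to 1.38) in dgcr8-/- cells and 1.56-fold lower (1.48 to 1.64) in dicer-/- cells than in WT; its lowest level was in dicer-/- cells. Snrpd1 lay nearest to WT of the 6, with 128 CPM in dgcr8-/- cells, 155 CPM in dicer-/- cells and 165 CPM in WT (1425, 1905 and 1636 counts), and was 1.29-fold lower (1.20 to 1.38) in dgcr8-/- cells and 1.06-fold lower (0.996 to 1.14) in dicer-/- cells than in WT. The exception was Snrpb, the gene of SmB and SmB', whose product is known in human cells to regulate the splicing of its own transcript. Snrpb had 310.0 CPM in dgcr8-/- cells, 323 CPM in dicer-/- cells and 244 CPM in WT (3448, 3980 and 2421 counts). It was 1.27-fold higher (1.21 to 1.34) in dgcr8-/- cells and 1.33-fold higher (1.26 to 1.40) in dicer-/- cells than in WT, so that WT was its lowest library. The ratio of Snrpb counts to the summed counts of the other 6 Sm core genes was 0.334 in dgcr8-/- cells, 0.334 in dicer-/- cells and 0.174 in WT, 1.92-fold (1.81 to 2.04) that of WT in dgcr8-/- cells and 1.92-fold (1.82 to 2.03) in dicer-/- cells. In sum the other 6 genes had 928 CPM in dgcr8-/- cells, 969 CPM in dicer-/- cells and 1403 CPM in WT.

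**Figure D4:**
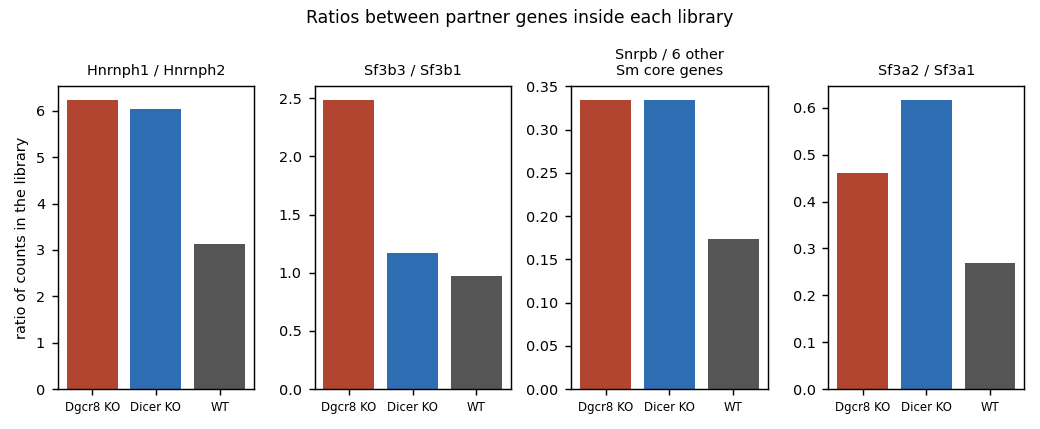
Ratio of counts of partner genes inside each library: Hnrnph1 to Hnrnph2, Sf3b3 to Sf3b1, Snrpb to the sum of the other 6 Sm core genes, and Sf3a2 to Sf3a1. Each ratio drawn is lowest in WT, but the ratios were chosen after the values were seen. The ratio of Snrpa1 to Snrpb2, which is not drawn, was highest in WT. That of Sf3b3 is 2.48 in dgcr8-/- cells and 1.17 in dicer-/- cells, and that of Snrpb 0.334 and 0.334.

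Both U1-specific genes were below WT in each knockout, and of the 2 U2-specific genes Snrpa1 was. For U1, Snrpc, whose protein helps the particle hold the 5′ splice site, had 99.2 CPM in dgcr8-/- cells, 116 CPM in dicer-/- cells and 148 CPM in WT (1104, 1426 and 1472 counts) and was 1.49-fold lower (1.38 to 1.62) in dgcr8-/- cells and 1.28-fold lower (1.19 to 1.38) in dicer-/- cells than in WT. Snrpa, which encodes the A protein of U1, had 206 CPM in dgcr8-/- cells, 186 CPM in dicer-/- cells and 233 CPM in WT (2292, 2288 and 2319 counts) and was 1.13-fold lower (1.07 to 1.20) in dgcr8-/- cells and 1.26-fold lower (1.19 to 1.33) in dicer-/- cells than in WT. For U2, Snrpa1, which encodes the A' protein of U2, had 114 CPM in dgcr8-/- cells, 109.8 CPM in dicer-/- cells and 194 CPM in WT (1268, 1352 and 1931 counts) and was 1.71-fold lower (1.59 to 1.83) in dgcr8-/- cells and 1.77-fold lower (1.65 to 1.90) in dicer-/- cells than in WT, the lowest ratio of all members in dicer-/- cells. The B'' protein that it binds is encoded by Snrpb2, which had 89.9 CPM in dgcr8-/- cells, 98.1 CPM in dicer-/- cells and 94.5 CPM in WT (1000, 1207 and 939 counts) and was 1.05-fold lower (0.961 to 1.15) in dgcr8-/- cells and 1.04-fold higher (0.952 to 1.13) in dicer-/- cells than in WT. WT was the highest library for Snrpa1, while the intervals of both Snrpb2 ratios include 1. The ratio of Snrpa1 to Snrpb2 counts inside a library was 1.27 in dgcr8-/- cells, 1.12 in dicer-/- cells and 2.06 in WT. Over all 11 Snrp genes, 5 in dgcr8-/- cells and 4 in dicer-/- cells were at least 1.5-fold lower and 0 were 1.5-fold higher in either, against 17.7% and 19.7% lower and 27.1% and 28.0% higher among all genes. With median-ratio size factors 0 and 0 were higher and 6 and 6 lower, in dgcr8-/- and dicer-/- cells in that order. Of all genes 22.7% and 24.6% were then higher and 21.9% and 23.0% lower. The median log2 ratio of the 11 Snrp genes was -0.57 in dgcr8-/- cells and -0.51 in dicer-/- cells. Over the 31 SR protein and hnRNP genes the median was 0.15 in dgcr8-/- cells and 0.17 in dicer-/- cells, near the medians of all genes of 0.11 and 0.10; with median-ratio size factors it was 0.01 and 0.06.

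Between the 2 knockout lines, a comparison without the WT library, the splicing regulators were close. Of 51 members, 2 were at least 1.5-fold higher in dgcr8-/- cells, against 12.6% of all genes, and 0 at least 1.5-fold lower, against 12.5%. At 2-fold, 1 was higher, against 4.15%, and 0 lower, against 5.05%. The 2 higher genes were Sf3b3 and Hnrnpul1, which was 1.54-fold higher (1.33 to 1.77) in dgcr8-/- than in dicer-/- cells. Next came Sf3a1, 1.21-fold higher (1.15 to 1.28), Snrpe, 1.19-fold higher (1.13 to 1.25), Hnrnph3, 1.18-fold higher (1.05 to 1.31), and Hnrnpa2b1, 1.17-fold higher (1.14 to 1.20). At the other end, Sfrs18 was 1.38-fold lower (1.24 to 1.53), Sf3b5 1.30-fold lower (1.18 to 1.42), Snrpd1 1.21-fold lower (1.13 to 1.29), Hnrnph2 1.20-fold lower (1.09 to 1.33), Srsf5 1.19-fold lower (1.13 to 1.25) and Srsf7 1.18-fold lower (1.13 to 1.24) in dgcr8-/- than in dicer-/- cells. The median log2 ratio was -0.05. It was -0.18 for SR protein genes. Of these, 2 of 11 had a ratio above 1, against 50.3% of all genes, and 9 of 11 had a ratio below 1, against 49.7%. With median-ratio size factors 0 of the 11 were above 1, against 48.0% of all genes.

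The promoters of 5 members are shown because these genes had the ratios the account turns on: Sf3b3, Sf3a2 and Hnrnpul1 on the higher side, and Snrpd3 and Snrpa1 on the lower. Each is the 250 bases before the first listed start of the gene, 5′ to 3′ on the gene's strand, from RefSeq in the build GRCm38.p6. They lie at chr8:110846804-110847053 (- strand), chr10:80798485-80798734 (+ strand), chr7:25754760-25755009 (- strand), chr10:75517792-75518041 (+ strand) and chr7:66060086-66060335 (+ strand), in the order given. Capitals mark matches, on either strand, to CCAAT (bound by NF-Y), GGGCGG (Sp1), TATAAA (the TATA box), CACGTG (the E-box), CTTCCG (the core of ETS sites) or TGACGTCA (CREB), and to the NRF1 palindrome.
Sf3b3: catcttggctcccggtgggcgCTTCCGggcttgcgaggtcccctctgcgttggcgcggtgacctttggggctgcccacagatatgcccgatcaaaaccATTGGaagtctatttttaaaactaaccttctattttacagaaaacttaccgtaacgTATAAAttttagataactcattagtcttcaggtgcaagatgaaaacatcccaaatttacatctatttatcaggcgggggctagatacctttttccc
Sf3a2: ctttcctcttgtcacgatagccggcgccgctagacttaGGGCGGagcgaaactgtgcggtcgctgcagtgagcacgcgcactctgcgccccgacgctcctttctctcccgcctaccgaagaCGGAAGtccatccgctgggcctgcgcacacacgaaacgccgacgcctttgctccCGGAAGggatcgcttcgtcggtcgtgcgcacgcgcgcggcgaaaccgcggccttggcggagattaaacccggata
Hnrnpul1: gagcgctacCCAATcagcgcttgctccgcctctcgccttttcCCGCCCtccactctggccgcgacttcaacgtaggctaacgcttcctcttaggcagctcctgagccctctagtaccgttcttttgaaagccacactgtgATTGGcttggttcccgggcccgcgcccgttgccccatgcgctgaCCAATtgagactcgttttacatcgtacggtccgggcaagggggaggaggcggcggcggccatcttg
Snrpd3: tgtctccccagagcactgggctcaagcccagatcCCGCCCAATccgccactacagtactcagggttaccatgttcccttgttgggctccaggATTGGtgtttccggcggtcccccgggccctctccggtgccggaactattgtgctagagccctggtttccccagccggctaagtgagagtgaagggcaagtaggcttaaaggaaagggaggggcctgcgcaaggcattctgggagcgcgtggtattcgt
Snrpa1: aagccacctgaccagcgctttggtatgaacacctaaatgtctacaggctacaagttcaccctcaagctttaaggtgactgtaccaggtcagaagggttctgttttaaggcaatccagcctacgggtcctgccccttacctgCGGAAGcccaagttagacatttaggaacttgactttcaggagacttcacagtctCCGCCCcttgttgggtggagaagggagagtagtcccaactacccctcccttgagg
The Sf3b3 window lies inside the span of Cog4. In it CTTCCG, the CCAAT box and TATAAA each match once, with a GC content of 45.6%. Sf3a2 has 2 matches to CTTCCG and 1 match to GGGCGG, with a GC content of 65.2%. Hnrnpul1 has 3 matches to CCAAT and 1 to GGGCGG. Snrpd3 has 2 matches to CCAAT and 1 to GGGCGG, and 1 of each overlap by 2 bases. Snrpa1 has 1 match each to CTTCCG and GGGCGG.

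Promoters were listed for 44 of the 51 members; those of Hnrnpll, Hnrnpul2, Sf3b4, Sf3b5, Sfrs18, Snrpb and Snrpd1 are not shown. CTTCCG was in 23 of 44 (52.3%), against 24.9% of the 10817 promoters of genes in the mRNA table and 13.8% of all 27025. Among members it was in 7 of 9 Snrp promoters, 6 of 6 SF3 promoters, 5 of 11 SR promoters and 5 of 18 hnRNP promoters. GGGCGG was in 70.5% of members, 59.5% of genes of the table and 32.9% of all promoters, and CCAAT in 45.5%, 37.2% and 34.5%. TATAAA was in 11.4%, 6.52% and 13.0%, CACGTG in 6.82%, 8.47% and 6.05%, and TGACGTCA in 4.55%, 2.72% and 1.62%. The NRF1 palindrome was in 0 members, 1.59% of genes of the table and 0.781% of all promoters. The median GC content was 60.6% in members, 60.0% in genes of the table and 52.0% over all promoters. A match describes letters only and was not tested as a site.

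A further 10 lists of splicing genes, none of them members, were read the same way. Counts in these lists are at 1.5-fold unless another fold is given, and are to be set beside 27.1% higher and 17.7% lower of all genes in dgcr8-/- cells and 28.0% and 19.7% in dicer-/- cells. Those with median-ratio size factors are to be set beside 22.7% higher and 21.9% lower in dgcr8-/- cells and 24.6% and 23.0% in dicer-/- cells. The median of the Snrnp-named genes lay below 0 in each knockout. Of 7 Snrnp-named genes, 2 in dgcr8-/- cells and 4 in dicer-/- cells were at least 1.5-fold lower than in WT and 1 in dgcr8-/- cells and 1 in dicer-/- cells higher, and the median log2 ratio was -0.43 in dgcr8-/- cells and -0.66 in dicer-/- cells. Of the same 7 genes, scaled by median-ratio size factors, 0 and 0 were higher and 3 and 4 lower, in dgcr8-/- and dicer-/- cells in that order. Snrnp25, a protein of the minor spliceosome, was 2.36-fold lower (2.02 to 2.77) in dgcr8-/- cells and 3.79-fold lower (3.17 to 4.55) in dicer-/- cells than in WT, and Snrnp48, of the same particle, was 2.21-fold lower (1.86 to 2.62) in dgcr8-/- cells and 2.0-fold lower (1.71 to 2.35) in dicer-/- cells than in WT. The helicase gene Snrnp200, which unwinds U4 from U6, was on the other side, 1.61-fold higher (1.53 to 1.69) in dgcr8-/- cells and 1.59-fold higher (1.51 to 1.67) in dicer-/- cells than in WT. Many LSM proteins form the ring on U6 RNA or act in mRNA decay. Of 10 LSM genes, 3 in dgcr8-/- cells and 5 in dicer-/- cells were lower and 0 higher. Their median was -0.43 in dgcr8-/- cells and -0.35 in dicer-/- cells. For the LSM genes, scaled by median-ratio size factors, 0 and 0 were higher and 5 and 5 lower, in dgcr8-/- and dicer-/- cells in that order. Lsm6 was 2.04-fold lower (1.83 to 2.27) in dgcr8-/- cells and 2.96-fold lower (2.64 to 3.34) in dicer-/- cells than in WT, and Lsm1, of the decay ring, 1.5-fold lower (1.31 to 1.72) in dgcr8-/- cells and 2.47-fold lower (2.12 to 2.88) in dicer-/- cells than in WT. On the log2(CPM + 1) scale Lsm1 was at -0.572 in dgcr8-/- cells, just short of 1.5-fold, and is not counted there.

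Of the 12 U2AF and branch site genes, 2 in dgcr8-/- cells and 2 in dicer-/- cells were lower, close to the shares of all genes (17.7% and 19.7%), and 0 higher. Phf5a, a small subunit of SF3B outside the member rule, had 58.9 CPM in dgcr8-/- cells, 76.6 CPM in dicer-/- cells and 129 CPM in WT (655, 943 and 1281 counts) and was 2.19-fold lower (1.99 to 2.41) in dgcr8-/- cells and 1.68-fold lower (1.55 to 1.83) in dicer-/- cells than in WT. Rbm17 had log2 ratios of -0.63 in dgcr8-/- cells and -0.74 in dicer-/- cells. Of 20 PRP19 complex and catalytic step genes, 3 in dgcr8-/- cells and 4 in dicer-/- cells were lower, again close to the shares of all genes, and 0 higher. Among the lower were Bud31 at -1.45 in dgcr8-/- cells and -1.24 in dicer-/- cells and the cyclophilin gene Ppie at -0.92 in dgcr8-/- cells and -1.0 in dicer-/- cells. Of 13 tri-snRNP genes, 1 in dgcr8-/- cells and 1 in dicer-/- cells was lower and 1 in dgcr8-/- cells and 0 in dicer-/- cells higher, with log2 ratios of -0.86 in dgcr8-/- cells and -0.52 in dicer-/- cells for Ppih, -0.27 in dgcr8-/- cells and -0.85 in dicer-/- cells for Usp39 and 0.65 in dgcr8-/- cells and 0.51 in dicer-/- cells for Cd2bp2. In the tri-snRNP list, scaled by median-ratio size factors, 0 and 0 were higher and 2 and 2 lower, in dgcr8-/- and dicer-/- cells in that order. Of 13 SMN complex and assembly genes, 2 in dgcr8-/- cells and 3 in dicer-/- cells were higher and 0 in dgcr8-/- cells and 1 in dicer-/- cells lower, below the shares of all genes in each direction. These counts depend on the scaling. With median-ratio size factors 0 and 1 were higher and 4 and 3 lower, in dgcr8-/- and dicer-/- cells in that order. Of all genes 22.7% and 24.6% were then higher and 21.9% and 23.0% lower, so the 3 lower in dicer-/- cells are near that share. Gemin7 was 1.64-fold higher (1.33 to 2.02) in dgcr8-/- cells and 2.45-fold higher (2.03 to 2.99) in dicer-/- cells than in WT. Gemin4 was 1.61-fold higher (1.46 to 1.78) in dgcr8-/- cells and 1.57-fold higher (1.42 to 1.73) in dicer-/- cells. Gemin6 was on the other side, 1.43-fold lower (1.24 to 1.66) in dgcr8-/- cells and 1.64-fold lower (1.42 to 1.89) in dicer-/- cells. Prmt5, which methylates Sm proteins before assembly, had 204 CPM in dgcr8-/- cells, 209 CPM in dicer-/- cells and 136 CPM in WT (2270, 2571 and 1351 counts) and was 1.5-fold higher (1.40 to 1.61) in dgcr8-/- cells and 1.54-fold higher (1.44 to 1.64) in dicer-/- cells than in WT. On the log2(CPM + 1) scale Prmt5 was at 0.582 in dgcr8-/- cells, just short of 1.5-fold, and is not counted there.

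Among regulators of the SR proteins, 0 of 9 kinase and import genes passed 1.5-fold in dgcr8-/- cells and 1, Prpf4b, did in dicer-/- cells, at a log2 ratio of 0.75. Of 15 SR-related and coactivator genes tested, 2 in dgcr8-/- cells and 3 in dicer-/- cells were higher and 0 lower, with Srrm4, a neural activator of microexons, at 0.85 in dgcr8-/- cells and 1.16 in dicer-/- cells from 10 counts in WT, and Tra2a at 0.57 in dgcr8-/- cells and 0.67 in dicer-/- cells. Among these 15 genes, scaled by median-ratio size factors, 1 and 1 were higher and 1 and 1 lower, in dgcr8-/- and dicer-/- cells in that order. Of 13 exon junction and nonsense-mediated decay genes, 2 in dgcr8-/- cells and 2 in dicer-/- cells were higher and 2 in dgcr8-/- cells and 0 in dicer-/- cells lower. The counts moved with size factors: 1 and 2 were higher and 3 and 1 lower, in dgcr8-/- and dicer-/- cells in that order. Magohb, a copy of the exon junction gene Magoh, had 11 counts in dgcr8-/- cells, 176 in dicer-/- cells and 50 in WT. Smg1, the kinase of the decay factor UPF1, was at 0.66 in dgcr8-/- cells and 0.81 in dicer-/- cells.

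Of the 10 lists, that of regulators known for cell-type-restricted programmes had the widest range of ratios. This list also holds Ptbp1, Khdrbs1, Celf1 and Elavl1, at 500, 188, 186 and 164 CPM in WT, so it is not limited to genes that are low in WT. Of 22 tested, 8 in dgcr8-/- cells and 9 in dicer-/- cells were at least 2-fold higher (against 14.3% and 16.0% of all genes). At least 2-fold lower were 2 in dgcr8-/- cells and 1 in dicer-/- cells (against 8.02% and 9.7%). The median log2 ratio of the list was 0.40 in dgcr8-/- cells and 0.58 in dicer-/- cells. Ptbp2, the neural counterpart of Ptbp1, had 43.0 CPM in dgcr8-/- cells, 56.9 CPM in dicer-/- cells and 9.87 CPM in WT (478, 701 and 98 counts) and was 4.35-fold higher (3.50 to 5.47) in dgcr8-/- cells and 5.77-fold higher (4.67 to 7.20) in dicer-/- cells than in WT. Mbnl2, a muscleblind protein of differentiated cells, had 43.2 CPM in dgcr8-/- cells, 56.8 CPM in dicer-/- cells and 11.2 CPM in WT (481, 699 and 111 counts) and was 3.87-fold higher (3.14 to 4.80) in dgcr8-/- cells and 5.08-fold higher (4.15 to 6.27) in dicer-/- cells than in WT. Esrp1, an epithelial splicing regulator, had 22.7 CPM in dgcr8-/- cells, 63.4 CPM in dicer-/- cells and 10.3 CPM in WT (252, 781 and 102 counts) and was 2.21-fold higher (1.75 to 2.80) in dgcr8-/- cells and 6.18-fold higher (5.02 to 7.67) in dicer-/- cells than in WT. Rbm20, a splicing regulator of heart muscle, had 132 counts in dgcr8-/- cells, 295 in dicer-/- cells and 18 in WT. In these 4 genes WT was the lowest library and dicer-/- cells the highest. Other genes of the list had their highest level in WT. Elavl4 had 2 counts in dgcr8-/- cells, 6 in dicer-/- cells and 36 in WT, Elavl3 had 28, 29 and 54, and Mbnl3 had 20, 44 and 51. The lowest ratio of the list in each knockout, that of Elavl4, rests on these few counts. The highest in each knockout, that of Rbm20, rests on 18 counts in WT. Esrp2, Nova2 and Nova1, also at least 2-fold higher in each knockout, had 18, 17 and 6 counts in WT. The 6 listed neural markers summed to 229 CPM in dgcr8-/- cells, 215 CPM in dicer-/- cells and 149.6 CPM in WT. The highest single marker held 167, 129 and 126 CPM of these sums. Pax6 had 66, 189 and 2 counts in the same order, and 0 of the 6 were at 0 in any library. At least 2-fold higher than in WT were 3 of the 6 in dgcr8-/- cells and 5 in dicer-/- cells, against 14.3% and 16.0% of all genes. In either knockout 0 were 2-fold lower, against 8.02% and 9.7%. With median-ratio size factors 3 and 4 were 2-fold higher, against 11.8% and 14.2%. The part of the neural markers in the levels of these regulators was not tested.

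**Figure D5:**
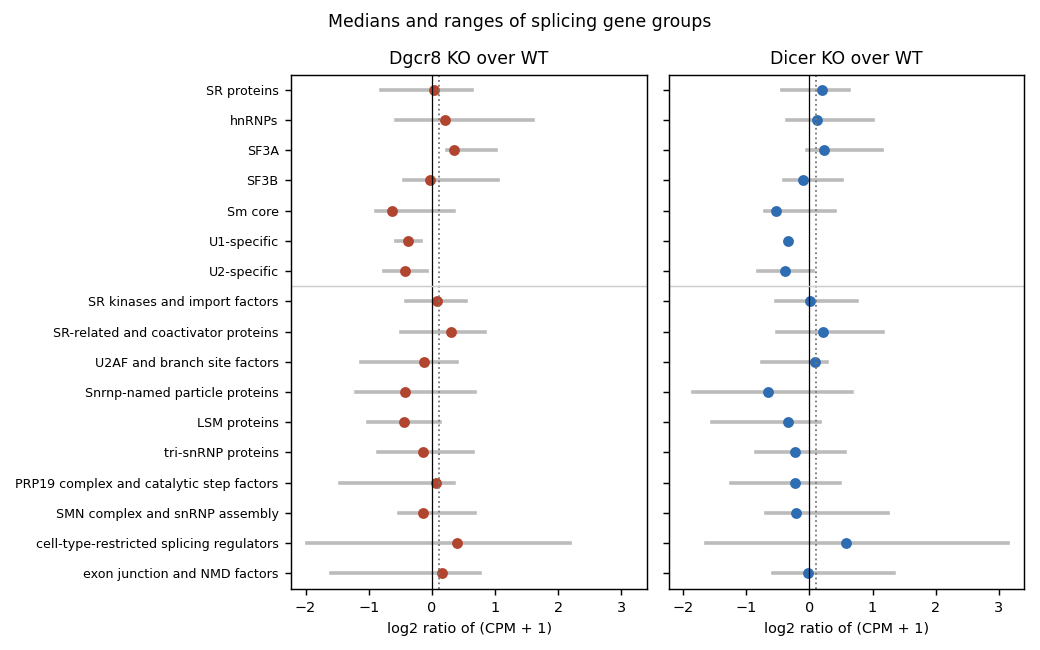
Median (point) and range (grey line) of the log2 ratio of (CPM + 1) for 7 role groups of the members, above the grey divider, and 10 lists of other splicing genes, below it, in dgcr8-/- cells over WT (left) and dicer-/- cells over WT (right); the dotted line is the median of all genes. The medians of the SF3B, Sm core, U1-specific, U2-specific, Snrnp-named, LSM, tri-snRNP and SMN complex groups lie left of 0 in each panel, and the cell-type-restricted regulators have the widest range.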

How the data were processed

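Polyadenylated RNA libraries, made with a stranded kit per the labels' protocols, gave 1 count column for each of dgcr8-/- cells, dicer-/- cells and WT. The authors deposited whole-number counts per RefSeq transcript entry; empty cells were read as 0. Bowtie (version not stated) and the build mm9 are named per the submitters' processing notes. For the counting tool, the annotation and the use of strand, no source used here gives a name. The WT small RNA table was not used here.

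CPM was computed over each column's total. Log2 ratios compare CPM + 1 for genes at 1 CPM or more in 1 library of a pair, which understates changes of low genes. Ratios of CPM carry exact conditional binomial 95% intervals (SciPy 1.17.1). Counts from 2 to 9 were even for 69.6% to 74.8% of genes, and whether each fragment was counted at both ends, which would make the intervals too narrow, was not tested; of 99 ratios of named members, 82 had an interval that excludes 1, and 78 of these still did with counts divided by 2. Intervals of ratios between partner genes inside a library use a log-normal approximation for counts. Median-ratio and TMM factors (edgeR 4.0.16 in R 4.3.3) served as other scalings. The scripts were tested on simulated counts. Names, overlaps of gene spans and promoters came from RefSeq tables of GRCm38.p6, matched for 51 of 51 members by accession; no positions of mm9 are given. Transcript lengths were not used, so levels are not compared between genes.

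The members and lists were chosen with earlier results of these data known. Members given in full were those at least 1.5-fold apart in any pair at 5 CPM or more, the 6 highest and 6 lowest of each pair, the 3 with the most CPM and the ends of each role group, 33 in all; the other 18 are given by range. For the other lists, genes with the largest ratios were named, up to 4 each. The cell-type-restricted list also has Elavl4, Elavl3 and Mbnl3 named, which were highest in WT, and further genes named for their level or few counts in WT. Partner ratios were chosen after the values were seen.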

Additional observations from a re-analysis of the deposited data

Results flagged for a closer look

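Sf3b3 lay on opposite sides of the same WT library in the knockouts, 2.08-fold higher (2.01 to 2.15) in dgcr8-/- cells and 1.09-fold lower (1.05 to 1.14) in dicer-/- cells, and was 2.27-fold higher in dgcr8-/- than in dicer-/- cells. With median-ratio and TMM scaling the log2 ratio of Sf3b3 in dgcr8-/- cells over WT was 0.91 and 0.94, below 2-fold. With 1 library of each, the difference between the knockouts was not tested.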

How the results depend on the processing

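Each group has 1 library, so no library could be left out. No paired analysis was possible because each group has 1 library. Median-ratio and TMM scaling moved the most values. In dgcr8-/- cells against WT, each left 1 member, Hnrnpul1, at least 2-fold higher and 1, Snrpd3, at least 2-fold lower. Sf3b3 fell below 2-fold, to log2 ratios of 0.91 (median-ratio) and 0.94 (TMM), and so did Sf3a2, to 0.88 and 0.90. Of all genes 11.8% (median-ratio) and 12.2% (TMM) were 2-fold higher, and 10.2% and 9.78% 2-fold lower. Member medians were -0.15 (median-ratio) and -0.13 (TMM), with summed CPM at 0.967 and 0.983 of WT. In dicer-/- cells against WT, each left 1 member 2-fold higher and 2 at least 1.5-fold higher. Of all genes 14.2% (median-ratio) and 14.3% (TMM) were 2-fold higher, and 24.6% and 24.7% 1.5-fold higher. Member medians were -0.059 and -0.053, with summed CPM at 0.972 and 0.977 of WT. In dgcr8-/- against dicer-/- cells, median-ratio scaling left 1 member at least 1.5-fold higher, against 11.8% of all genes. The summed CPM ratio was 0.995 (median-ratio) and 1.01 (TMM). A pseudocount of 0.1 CPM gave 1 member, Srsf12, at least 2-fold lower in dgcr8-/- cells than in WT, and 1, again Srsf12, at least 1.5-fold lower in dgcr8-/- than in dicer-/- cells. With 5 CPM, 1 member, Sf3a2, was at least 2-fold higher in dicer-/- cells than in WT, and 1, Sf3b3, at least 1.5-fold higher in dgcr8-/- than in dicer-/- cells. Without Hnrnpa3, the member with the most counts, the summed ratio was 1.07 in dgcr8-/- cells over WT and 1.03 in dgcr8-/- over dicer-/- cells. Of 99 ratios of named members, 52 left their counting interval with median-ratio and 49 with TMM scaling. Of those at least 1.5-fold apart, 0 changed direction, but 3 smaller ratios crossed 1 with median-ratio scaling (Hnrnpa3 and Snrpb2 in dicer-/- cells over WT at 0.996 and 0.96, and Srsf6 in dgcr8-/- over dicer-/- cells at 0.999) and 1, Snrpb2, with TMM at 0.964. No floor and summed rows of a symbol changed no count or median of the members. The 5 CPM floor and present symbols only each gave 6 members 1.5-fold lower in dgcr8-/- cells than in WT in place of 7, and a median of 0.0093 in place of -0.0099. A partner ratio inside a library needs no scaling. Depth limits Srsf12 most, with 8 to 20 counts.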

Other observations

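Snrpn, the imprinted gene of an Sm B relative that the member rule leaves out, had 75.7 CPM in dgcr8-/- cells, 116 CPM in dicer-/- cells and 101 CPM in WT (842, 1432 and 999 counts). The spans of 10 members overlap that of another gene of the table in GRCm38.p6. Among these, Rufy2, which overlaps Hnrnph3, had 56.1 CPM in dgcr8-/- cells, 49.3 CPM in dicer-/- cells and 28.4 CPM in WT, and Mfsd11, which overlaps Srsf2, had 17.8 CPM in dgcr8-/- cells, 22.0 CPM in dicer-/- cells and 16.1 CPM in WT.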
